A study of Mus musculus with 2 samples.

Results

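The interleukin 6 family was followed through 10 genes of the 27998 in the count tables. They are a set fixed by gene name: 5 cytokines (Il6, Lif, Osm, Il11 and Clcf1), 4 receptor chains (Il6ra, Il6st, Lifr and Osmr) and the feedback inhibitor Socs3. For each gene the unique molecular counts were summed over the cells of each deposited cell type label, separately for each day. All 10 were present in both libraries.

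The 2 libraries were droplet single-cell RNA-seq of tibialis anterior muscle of C57Bl/6 mice, 1 collected 2 days and 1 collected 7 days after injury with notexin, a myotoxic snake venom phospholipase. Both came from injured muscle, with no transgene or deletion, and the muscles were dissociated with enzymes, so intact myofibres were largely lost. The sample labels give both mice as female and 7 months old. The deposited cell annotation gives male mice of 4 months at day 2 and 7 months at day 7, with 1 mouse each. Transcripts of the Y-linked gene Ddx3y were found at 79.0 CPM (counts per 1000000 counts of the same cells) at day 2 and 75.3 at day 7, with 4 and 1 counts of Xist in all cells, which go with the annotation. With 1 library and 1 mouse per day, day, animal, age and library cannot be told apart, and no test over replicates can be made. Intervals below are exact 95% Poisson or binomial intervals and cover counting error only.

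Cytokines of this family share the signalling chain gp130, the product of Il6st. Il6ra, Il11ra1, Lifr and Osmr supply the second chain that gives each cytokine its specificity, and the assembled receptor activates JAK kinases and STAT3. Socs3 is a STAT3 target whose protein binds gp130 and JAK and limits the signal. In injured muscle the family is known for roles in inflammation, in fibroblast activation and in the growth of myoblasts. Fibro-adipogenic progenitors (FAPs) are the resident mesenchymal cells of muscle, and MuSCs are its stem cells.

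The annotation assigned a type to most called cells, and 3178 cells at day 2 and 3196 at day 7 passed the limits of the study on genes, transcripts and mitochondrial share. Their median depth was 9058.5 counts per cell at day 2 and 6583 at day 7. A single barcode was shared between the kept cells of the libraries. The 25 labels were grouped into 12 classes. Labels with at least 20 kept cells are described, 18 at day 2 and 23 at day 7, and 5 classes with at least 50 kept cells on both days are compared. T and NK cells, with 71 and 404 kept cells, also passed this limit but were not compared between the days. A gene was called higher or lower where its CPM differed at least 2-fold and the interval of the ratio left out 1, among genes with at least 20 counts over both days. Free RNA was measured in the barcodes with 1 to 100 counts, taken as empty droplets.

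Several labels went against marker genes and bear on the cytokines. Of the 50 kept barcodes labelled T Cells at day 2, 17 held 3 or more counts of the basophil and mast cell genes Mcpt8, Cpa3, Fcer1a and Ms4a2, and 1 of those 17 held any count of the T and NK cell markers. At day 7, 0 of 293 barcodes with that label did so. The label Neutrophils at day 7 covered 10 cells, of which 1 held 3 or more counts of neutrophil markers and 3 held 3 or more basophil and mast cell counts. Of the cells labelled Smooth Muscle, 94.1% at day 2 and 84.5% at day 7 held 3 or more counts of endothelial markers, against 65.1% and 63.8% for smooth muscle and pericyte markers. The class is called smooth muscle cells here after its label, and values in the barcodes with fewer than 3 endothelial counts, 18 at day 2 and 36 at day 7, are given beside its results. Of the 21 barcodes labelled MuSCs at day 2, 5 held 3 or more counts of myogenic markers, and erythroid genes summed to 23320 CPM there, with 3 or more counts in 2 of them. At day 7, 132 of 137 held 3 or more myogenic counts. FAP markers were present in all FAPs on both days, with a summed level of 13076 CPM at day 2 and 71139.5 CPM at day 7.

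In the genome build GRCm38, Osm (chromosome 11, 4236420 to 4241026) lies 16530 bp from Lif (4257557 to 4272514) on the same strand, and Osmr (chromosome 15, 6813577 to 6874969) lies 215644 bp from Lifr (7090614 to 7197489). Il6 spans 30013114 to 30019981 of chromosome 5, Il11 4772373 to 4782859 of chromosome 7, and Socs3 117966079 to 117970047 of chromosome 11. The 250 bases upstream of annotated starts were read from RefSeq (GRCm38.p6), in 10 windows of 8 members. No window was available for Osm and Clcf1, which were called lower in FAPs at day 7 too. The windows of Il6, Lif and Il11 are shown because those 3 genes were all lower in FAPs at day 7, and that of Socs3 because it holds a STAT motif. Each is written 5′ to 3′ on the strand of its gene. Capitals mark the AP-1 motif TGANTCA in the first 3 and the STAT motif TTCNNNGAA in Socs3, with N for any base and both strands searched.
Il6, chr5:30012864-30013113, plus strand: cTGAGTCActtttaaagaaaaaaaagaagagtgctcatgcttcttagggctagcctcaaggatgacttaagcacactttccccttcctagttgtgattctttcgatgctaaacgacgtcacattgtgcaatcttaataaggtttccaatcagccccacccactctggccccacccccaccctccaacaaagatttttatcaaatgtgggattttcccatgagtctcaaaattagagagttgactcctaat
Lif, chr11:4257318-4257567, plus strand: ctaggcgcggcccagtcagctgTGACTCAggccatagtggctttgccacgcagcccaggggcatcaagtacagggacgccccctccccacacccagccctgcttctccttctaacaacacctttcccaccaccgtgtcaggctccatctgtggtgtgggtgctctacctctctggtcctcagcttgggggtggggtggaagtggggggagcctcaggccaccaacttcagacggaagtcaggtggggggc
Il11, chr7:4778142-4778391, minus strand: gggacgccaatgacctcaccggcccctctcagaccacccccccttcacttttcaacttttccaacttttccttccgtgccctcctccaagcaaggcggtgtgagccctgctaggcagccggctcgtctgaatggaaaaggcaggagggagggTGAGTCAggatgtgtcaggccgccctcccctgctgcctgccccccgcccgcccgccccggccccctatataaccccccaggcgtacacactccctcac
Socs3, chr11:117969367-117969616, minus strand: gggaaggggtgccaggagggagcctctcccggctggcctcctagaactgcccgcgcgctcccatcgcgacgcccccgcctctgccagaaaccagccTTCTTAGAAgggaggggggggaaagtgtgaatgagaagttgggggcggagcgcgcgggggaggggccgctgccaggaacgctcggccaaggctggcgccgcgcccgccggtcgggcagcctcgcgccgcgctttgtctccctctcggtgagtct
The AP-1 motif began 249 bases before the start in Il6, 228 in Lif and 98 in Il11, and the STAT motif began 154 bases before the start in Socs3. Of all 32851 windows of this length, 6.75% held the AP-1 motif and 7.02% the STAT motif. Il11 has a further annotated start, whose window (4782858 to 4783107) held none of the motifs searched. An NF-kB motif was found in the windows of Il6 and Lif and in 7.25% of all windows. The windows of Il6ra, Il6st, Lifr and Osmr held none of these motifs, the cyclic AMP response element TGACGTCA or the TATA box TATAAA. A match is a match of letters only.

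The cytokines and their receptors were divided between cell types. At day 2, Lif and Il11 were highest in FAPs, as was Il6 apart from the label T Cells described below. Osm was highest in a monocyte label on both days, apart from the barcodes with basophil and mast cell genes described below. Among the labels described, Il6st and Osmr were highest in FAPs (Pro-remodeling) at day 2. At day 7 Il6st was highest in Endothelial (Vein), with 21 cells, and Osmr in Endothelial (Artery), with 26. As classes, FAPs had higher values of both genes than endothelial cells on both days. Il6ra was highest in neutrophils at day 2 and in an M2 macrophage label at day 7. Neighbouring labels in the order of levels were often not separated: of 343 neighbouring pairs over the 10 genes and both days, 36 differed beyond counting error.

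**Figure D1:**
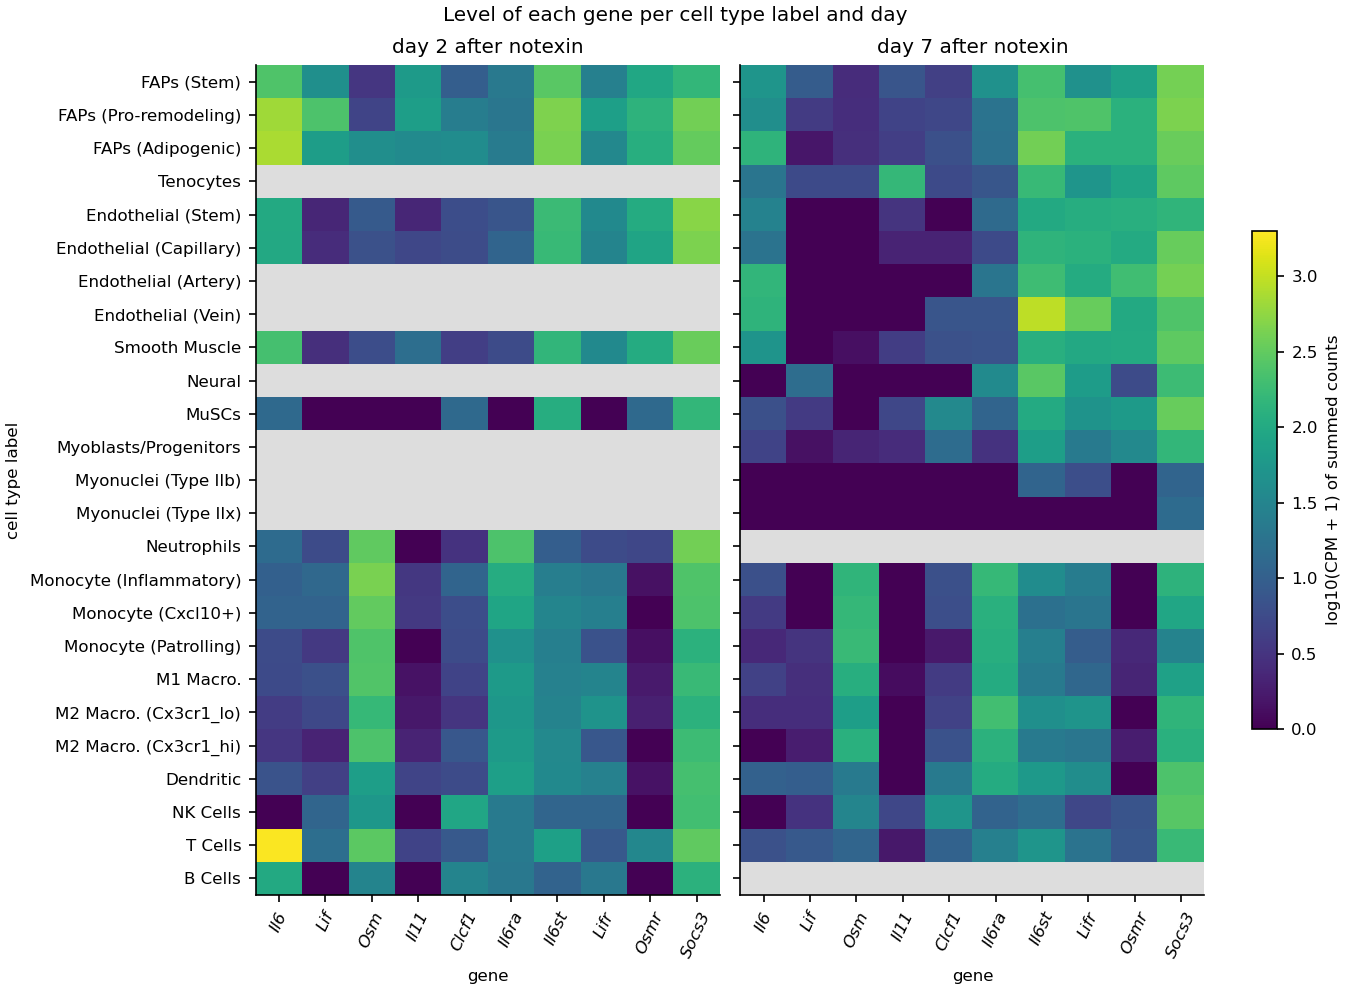
Level of each of the 10 genes (columns) in each cell type label (rows) at day 2 and day 7, as log10(CPM + 1) of the summed counts; grey marks labels with under 20 kept cells. Il6, Lif and Il11 stand out in the FAP labels at day 2, Osm and Il6ra in the myeloid labels, and Il6st and Osmr in FAPs, endothelial cells and Smooth Muscle on both days.

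In FAPs all 10 members passed the minimum of counts, against 6 to 9 in the other 4 classes compared. Of the 10, 1 was called higher at day 7, where 24.8% of all 11851 genes were called higher, and 5 were called lower, where 13.8% of all genes were called lower. The 5 lower members were the 5 cytokines, and the higher one was Lifr. The median log2 ratio of day 7 to day 2 was -1.23 over the 10 members and 0.21 over all genes tested. FAPs were 215 cells with a median depth of 24329 counts at day 2 and 805 cells with 8429 counts at day 7, and the part of this depth difference in the results was not tested beyond the thinned shares given below.

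Il6, the founding cytokine of the family, was at 579 CPM in FAPs at day 2 (interval 559 to 601). At day 7 it was at 62.2 CPM (56.9 to 67.9), which is 9.31-fold lower (log2 ratio -3.22, -3.36 to -3.08). Both levels lay above free RNA, which held Il6 at 96.6 CPM at day 2 and 26.8 at day 7. All 3 FAP labels showed the lower level at day 7. FAPs (Pro-remodeling) had 682 CPM at day 2 and 41.3 at day 7. FAPs (Stem) had 248 CPM at day 2 and 52.2 at day 7. FAPs (Adipogenic) had 750 CPM at day 2 and 141 at day 7, but 170 of their 267 counts at day 2 came from 1 cell.

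Il6 was found in many FAPs and was concentrated in few. At day 2, 160 of 215 FAPs (74.4%) held a count, and 21 cells held 50% of all counts. At day 7, 143 of 805 (17.8%) did so. With every cell thinned to 2000 counts the shares were 41.3% at day 2 (34.6 to 48.2) and 8.28% at day 7 (6.45 to 10.4). This left out 2 and 20 shallower FAPs. In monocytes and macrophages, whose Il6 level was below free RNA on both days, the thinned share was 0.930% at day 2 and 0.398% at day 7, at median depths of 11696 and 8546 counts.

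Lif, a cytokine first known from leukaemia cells and also made by injured muscle, was at 178 CPM in FAPs at day 2 (166 to 190) and at 2.70 CPM at day 7 (1.69 to 4.09). The level at day 7 was about that of free RNA (2.82 CPM), so the 65.8-fold ratio ended at background. FAPs (Pro-remodeling) led at day 2 with 237 CPM, beyond the counting error of FAPs (Adipogenic) at 67.4 and FAPs (Stem) at 43.3. Those labels had 2.72, 0.607 and 8.15 CPM at day 7. Of 101 FAPs with Lif at day 2, 90 also held Il6, which is 89.1% of the cells with Lif and 56.3% of those with Il6. At day 7, 6 of 20 cells with Lif held Il6.

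Il11, a cytokine known to act on fibroblasts, was at 65.7 CPM in FAPs at day 2 (58.8 to 73.0) and at 3.68 CPM at day 7 (2.48 to 5.25), 17.8-fold lower. Free RNA held Il11 at 8.19 CPM at day 2 and 2.01 (0.966 to 3.70) at day 7, so this ratio ended near background. Its level at day 2 was 69.9 CPM in FAPs (Pro-remodeling), 62.2 in FAPs (Stem) and 36.5 in FAPs (Adipogenic), and the first 2 did not differ beyond counting error. Only 59 of 215 FAPs held a count, and 50 of them also held Il6.

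Clcf1, a ligand of the ciliary neurotrophic factor receptor, was at 21.2 CPM in FAPs at day 2 (17.4 to 25.6) and at 4.29 CPM at day 7 (2.99 to 5.97), with a log2 ratio of -2.31. Free RNA held 6.22 CPM at day 2 and 11.7 at day 7. Osm was also called lower in FAPs, from 6.04 to 1.72 CPM, but both values were below free RNA (88.7 and 37.5 CPM). Of 15 Osm counts in FAPs (Adipogenic) at day 2, 12 were in 1 cell, and Osm was no longer called once FAPs with 3 or more counts of the leukocyte gene Ptprc were left out.

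**Figure D2:**
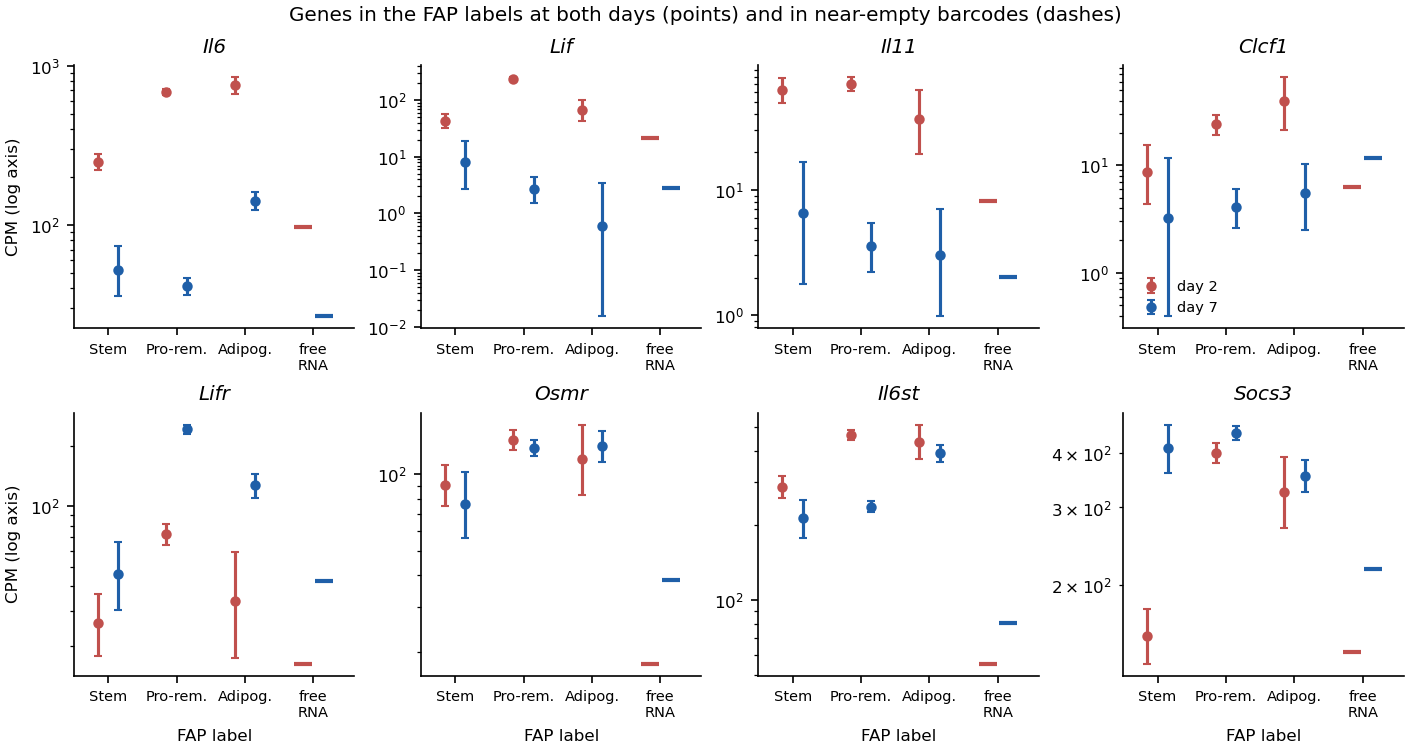
CPM (log axis) of 8 members in the 3 FAP labels at day 2 and day 7, with 95% counting intervals; dashes mark the level in free RNA. Il6, Lif, Il11 and Clcf1 lie lower at day 7 in FAPs (Pro-remodeling), whereas Lifr lies higher there (72.4 against 242 CPM) and Osmr stays close (137 against 127 CPM).

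FAPs supplied most counts of 3 cytokines at day 2 although they were 6.77% of the kept cells and held 15.1% of all counts. They held 60.0% of the 4960 Il6 counts, 87.9% of the 1037 Lif counts and 75.7% of the 445 Il11 counts. With equal weight of cell types the FAP share of Il6 was 22.5%, and T and NK cells, whose label T Cells is described below, led with 62.7%. At day 7 FAPs were 25.2% of the cells, with 29.5% of all counts, and held 64.3% of 788 Il6 counts. A share of counts depends on how many cells of each type were captured and how deeply they were sequenced as well as on their level. Smooth muscle cells held 21.5% of Il6 counts at day 2 and 17.0% at day 7, but those with fewer than 3 endothelial counts held 1.09% and 0.508%.

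The leading source of Il11 at day 7 rested on 1 cell. Tenocytes, the cells of tendon, held 58.2% of the 122 counts, and 70 of their 71 counts were in 1 of 48 cells. Without that cell 52 counts were left, of which tenocytes held 1.92% and FAPs led with 57.7%. Lif had only 63 counts at day 7, of which FAPs held 34.9% and T and NK cells 20.6%. The leading class of Clcf1 was FAPs at day 2, with 43.3% of 252 counts, and myogenic cells at day 7, with 29.4% of 204 counts. With equal weight of cell types, monocytes and macrophages led Clcf1 at day 2 and T and NK cells at day 7.

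**Figure D3:**
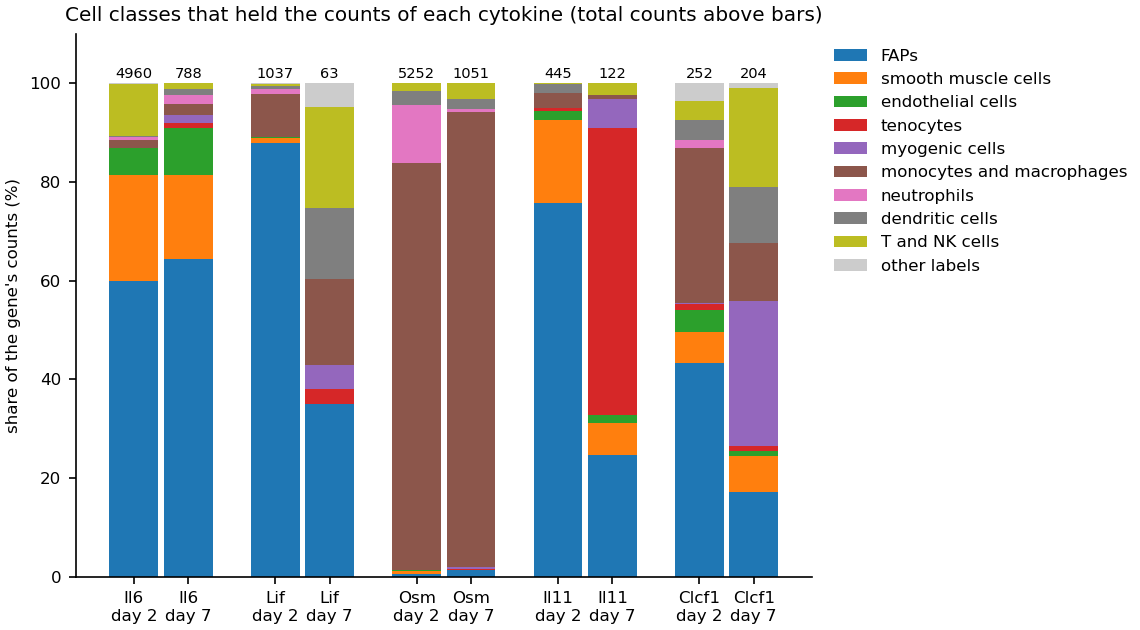
Share of the counts of each cytokine (percent) that came from each class of cells at day 2 and day 7, with the total count above each bar. FAPs held 60.0% of Il6, 87.9% of Lif and 75.7% of Il11 counts at day 2, and monocytes and macrophages held 82.5% and 92.3% of Osm counts on the 2 days.

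The highest Il6 level of all labels was in T Cells at day 2, with 1901 CPM. Of the 518 Il6 counts with this label, 511 were in the 17 barcodes with 3 or more basophil and mast cell counts, whose lowest, median and highest Il6 counts were 0, 26 and 140. Within these 17, the barcodes with the most basophil and mast cell counts (128, 105, 68 and 41) held 1, 1, 1 and 0 Il6 counts. Those 17 also held 74 of the 80 Osm counts, at 1007 CPM (791 to 1264), above every label described. The 25 barcodes with at least 1 count of a T and NK cell marker and no basophil or mast cell count held 0 Il6 counts, and the remaining 8, with no count of either list, held 7. At day 7 the label had 9 Il6 counts in 293 barcodes (5.54 CPM). The 14 Il6 counts of the label Neutrophils at day 7 were all in the 3 barcodes with basophil and mast cell counts. Over all labels, 19 cells with 3 or more of those counts were 0.598% of the kept cells at day 2 and held 10.4% of the Il6 counts.

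**Figure D4:**
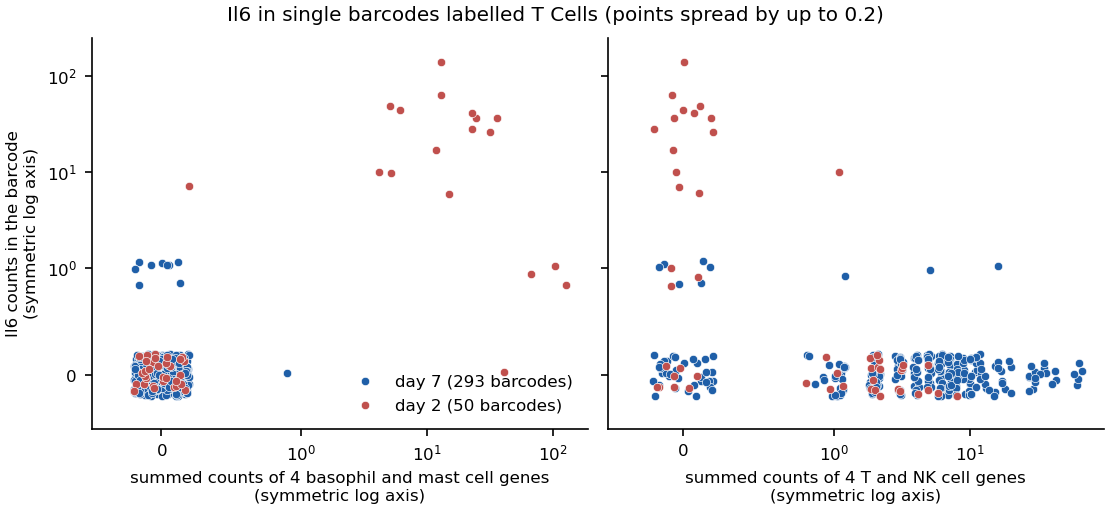
Il6 counts of each barcode labelled T Cells (one point each, both days) against the summed counts of 4 basophil and mast cell genes and against those of 4 T and NK cell genes, on axes that are linear near 0 and logarithmic beyond. The barcodes with high Il6 (up to 140 counts, day 2) have basophil and mast cell counts, and those with T and NK cell counts but no basophil or mast cell count have 0 at day 2.

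Osm, oncostatin M, came from myeloid cells. Monocytes and macrophages had 263 CPM at day 2 (255 to 271) and 129 CPM at day 7 (121 to 137), which is 2.04-fold lower (log2 ratio -1.03, -1.13 to -0.93). Both values were above free RNA. Monocyte (Inflammatory) led at day 2 with 427 CPM and had 142 at day 7. M1 Macro. had 254 and 117 CPM, and M2 Macro. (Cx3cr1_lo) had 163 and 69.2. Monocyte (Patrolling) had 248 CPM at day 2 and 174 at day 7, which was not called. Neutrophils, 708 cells at day 2, had 314 CPM and 11.7% of all Osm counts.

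The other cytokines were near background in monocytes and macrophages. In this class, 4 of the 8 members tested were called lower (12.3% of all 11318 genes tested) and 0 higher (18.8% of all genes), with a median log2 ratio of -0.84 over the members and -0.02 over all genes. The lower ones were Osm, Socs3, Il6 and Lif. Il6 was at 4.97 and 2.39 CPM and Lif at 5.52 and 1.46 CPM, all below free RNA. Osm was above free RNA on both days, and Socs3, at 170 and 84.8 CPM, at day 2 only (free RNA 140 and 218). The thinned share of cells with Osm was 34.8% (32.2 to 37.5) at day 2 and 17.5% (14.9 to 20.4) at day 7. In endothelial cells, at median depths of 6104.5 and 4217 counts, it was 1.20% and 0%, where 0 of 323 cells, at the floor of 3 counts, allow a share of up to 0.929% of cells at that depth (0 of 333 unthinned). Dendritic cell markers summed to 625 CPM in monocytes and macrophages at day 2 and to 7748 CPM at day 7, and their part in these differences was not tested.

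In dendritic cells, 7 members were tested, and Clcf1 was called higher (12.4% of 8138 genes) and Osm lower (7.42%). The median log2 ratio was 0.60 over those 7 and 0.05 over all genes. Osm was at 68.9 CPM at day 2 (58.3 to 81.0) and 21.2 at day 7 (13.3 to 32.0), below free RNA. Clcf1 was at 4.66 CPM (2.23 to 8.56) and 22.1 CPM (14.0 to 33.2), from 10 and 23 counts, of which 5 were in 1 cell at day 7. Clcf1 was highest in NK Cells on both days, with 88.4 and 50.9 CPM from 8 and 25 counts, and MuSCs had 34.6 CPM at day 7.

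Smooth muscle cells held Il6 and little of the other cytokines. Il6 was at 209 CPM at day 2 (196 to 222) and 49.5 CPM at day 7 (41.4 to 58.6), 4.22-fold lower, and was found in 170 of 304 and 34 of 232 cells. Of the 134 counts at day 7, 34 were in 1 cell. Of 9 members tested, 1 was called higher, Lifr (13.5% of 11039 genes), and 3 were called lower, Il6, Osm and Il11 (7.35%). The median log2 ratio was -0.21 over the members and 0.10 over all genes. Il11 was at 14.7 CPM at day 2 and 2.95 at day 7. Osm had 26 counts and 1 count, under free RNA. In the 18 and 36 cells with fewer than 3 endothelial marker counts, Il6 was at 619 CPM (465 to 808) at day 2 and 26.0 (7.08 to 66.5) at day 7, so the direction was the same there. With those cells alone, Osm, Il11 and Lifr were no longer called.

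In endothelial cells, Il6 was at 110 CPM at day 2 (96.9 to 124) and 44.7 at day 7 (35.2 to 56.0), close to free RNA at day 2. It was the 1 member called lower there (9.05% of 9616 genes), and Lifr was the 1 called higher (13.9%), among 6 tested, with a median log2 ratio of 0.12 over the members and 0.06 over all genes. Endothelial (Capillary) had 96.3 CPM of Il6 at day 2 and 16.9 at day 7, and Endothelial (Stem) 98.9 and 28.0. Endothelial (Artery) and Endothelial (Vein), with only 15 and 12 cells at day 2, had 63.1 (27.3 to 124) and 223 CPM then, so the first of them had a lower value at day 2 than at day 7. At day 7 Endothelial (Artery) and Endothelial (Vein) had 150 and 139 CPM, the highest label levels with FAPs (Adipogenic) at 141, and these 3 did not differ beyond counting error.

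**Figure D5:**
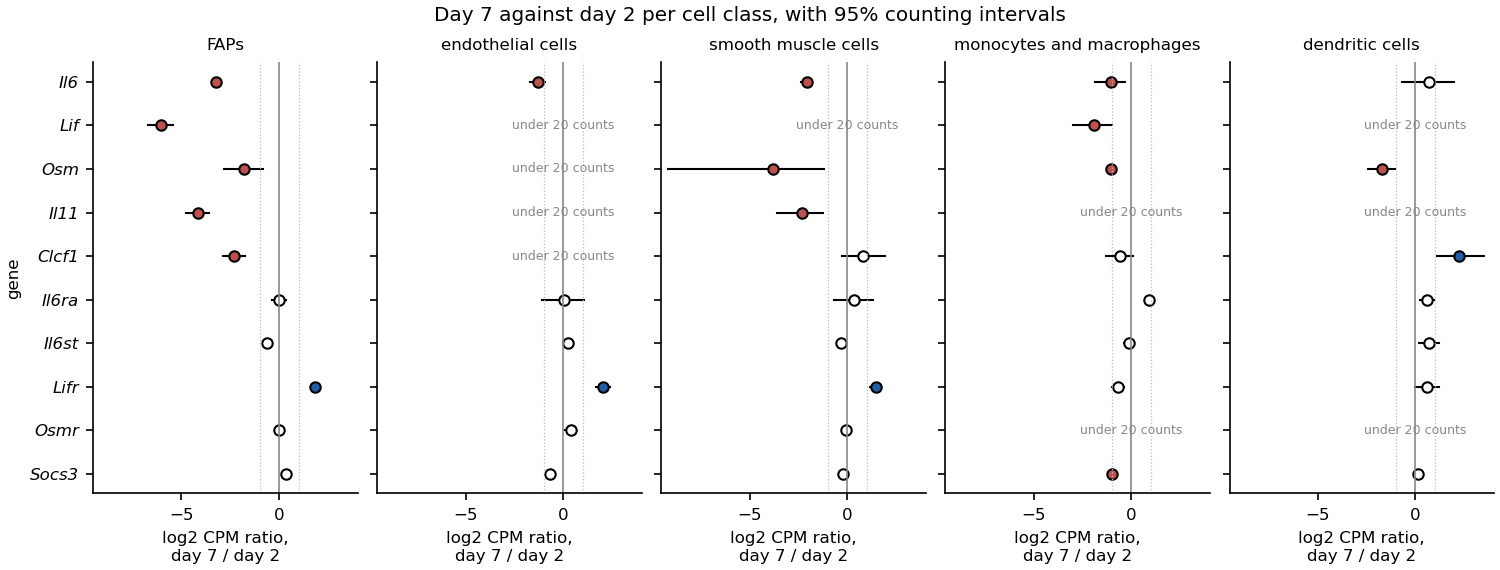
Log2 ratio of CPM at day 7 to day 2 for each member in the 5 compared classes, with 95% counting intervals; red marks members called lower, blue called higher, white not called, and dotted lines mark 2-fold. Lifr lies at 1.81, 2.02 and 1.44 in FAPs, endothelial cells and smooth muscle cells, and at -0.69 in monocytes and macrophages.

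Lifr, the chain used by LIF, CLCF1 and oncostatin M, was the 1 receptor chain of the 10 members called in any of the 5 classes. FAPs had 58.2 CPM at day 2 (51.8 to 65.2) and 204 CPM at day 7 (194 to 214), 3.50-fold higher. Endothelial cells had 35.0 CPM (28.0 to 43.3) and 142 CPM (124 to 161), 4.05-fold higher. Smooth muscle cells had 35.6 CPM (30.6 to 41.2) and 96.7 CPM (85.3 to 109), 2.71-fold higher, and those with fewer than 3 endothelial counts 57.4 (18.6 to 134) and 110 CPM (64.3 to 177), not called. At a 4-fold limit Lifr was called in endothelial cells only. Lifr was therefore called higher in the 3 classes of stromal and vessel cells, while monocytes and macrophages had 26.3 and 16.4 CPM, which was not called. Free RNA also held more Lifr at day 7, 42.3 CPM against 16.4.

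All 3 FAP labels had more Lifr at day 7, and 2 of them were called. FAPs (Pro-remodeling) had 72.4 CPM at day 2 and 242 at day 7, and FAPs (Adipogenic) had 33.7 and 127. FAPs (Stem) had 26.0 and 45.7 CPM, 1.76-fold higher and not called. The thinned share of FAPs with Lifr was 13.1% (8.92 to 18.4) at day 2 and 29.0% (25.9 to 32.4) at day 7. In endothelial cells the thinned shares were 6.02% and 22.0%. Among myeloid labels, M2 Macro. (Cx3cr1_lo) had 48.2 and 50.2 CPM, whereas M1 Macro. had 29.5 and 11.7, called lower.

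Il6st, which encodes gp130, was highest in FAPs among the 5 classes compared, on both days. FAPs had 418 CPM (400 to 436) at day 2 and 267 CPM (256 to 279) at day 7 (log2 ratio -0.64, under 2-fold). Endothelial cells had 177 CPM at day 2 (161 to 195) and 207 at day 7 (186 to 230). Smooth muscle cells had 148 and 119 CPM (103 and 110 with fewer than 3 endothelial counts), and monocytes and macrophages 27.5 and 24.9, below free RNA (55.3 and 80.9 CPM). None of the 5 classes passed 2-fold. Endothelial (Vein) stood out at day 7 with 923 CPM of Il6st and 341 CPM of Lifr, the highest label for both. Neural cells had 284 CPM of Il6st at day 7.

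Osmr, the oncostatin M receptor chain, divided the classes sharply and was called in none of them between days. FAPs had 124 CPM on both days (114 to 134, and 116 to 131). Endothelial cells had 89.5 and 117 CPM. Smooth muscle cells had 107 and 103 CPM, but those with fewer than 3 endothelial counts had 161 (87.8 to 269) and 32.5 CPM (10.5 to 75.8), from 14 and 5 counts, under the minimum of counts, with intervals that do not overlap. Monocytes and macrophages had 0.607 CPM at day 2 and 0.931 at day 7, from 10 and 7 counts in 1292 and 757 cells. Osm and Osmr were thus measured in different classes: the class with most Osm counts had Osmr below the 18.0 and 38.5 CPM of free RNA. MuSCs had 61.2 CPM of Osmr at day 7 and Myoblasts/Progenitors 34.3.

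Il6ra, the interleukin 6 binding chain, lay mainly in leukocytes. Neutrophils at day 2 had 235 CPM, beyond the counting error of the next label, Monocyte (Inflammatory), at 110. Monocytes and macrophages had 66.0 CPM at day 2 (62.1 to 70.0) and 124 at day 7 (116 to 132), a log2 ratio of 0.91 that fell short of 2-fold. The labels within this class differed: M2 Macro. (Cx3cr1_lo) had 55.5 and 197 CPM, Monocyte (Patrolling) 45.4 and 117 and M2 Macro. (Cx3cr1_hi) 62.2 and 133, all called higher. M1 Macro. had 62.3 and 105 CPM, which was not called. FAPs had 19.5 and 19.1 CPM, below free RNA (25.5 and 25.8), and smooth muscle cells had 4.70 and 5.90 (0 and 2 counts in those with fewer than 3 endothelial counts).

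Among the 5 classes, FAPs had the highest shares of cells with Il6st and Lifr, Osmr or Il11ra1 together, on both days. In FAPs thinned to 2000 counts, Il6st with Lifr was found in 7.51% (4.35 to 11.9) at day 2 and 10.7% (8.63 to 13.1) at day 7. Il6st with Osmr was found in 10.8% (6.97 to 15.8) and 7.26% (5.55 to 9.31), and Il6st with Il11ra1, the interleukin 11 chain, in 20.2% and 16.1%. The intervals of the 2 days overlapped for Lifr and for Osmr. Without thinning the shares were 65.1% and 56.4% for Lifr, 83.3% and 47.2% for Osmr and 90.2% and 68.9% for Il11ra1, at unequal depth. In endothelial cells, Il6st with Lifr was found in 1.81% (0.666 to 3.89) at day 2 and 7.43% (4.82 to 10.9) at day 7, where the intervals do not overlap. In thinned monocytes and macrophages, Il6st with Osmr was found in 0 of 1290 and 0 of 753 cells, which, at the floor of 3 counts, allows shares of up to 0.233% and 0.398% of cells at that depth. Unthinned, 2 of 1292 (0.155%) and 4 of 757 (0.528%) held both. Il11ra1 has near-identical copies listed beside it, so its level is uncertain.

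Socs3, the feedback inhibitor, had counts in every label described and differed in direction between classes. Its interval lay above free RNA in 12 of 18 labels at day 2 and in 9 of 23 at day 7. FAPs had 333 CPM at day 2 (318 to 349) and 423 at day 7 (409 to 438), which was under 2-fold. Endothelial cells had 454 CPM (428 to 482) and 284 CPM (259 to 310), a log2 ratio of -0.68. Smooth muscle cells had 347 and 300 CPM, but those with fewer than 3 endothelial counts had 252 (158 to 382) and 64.9 CPM (31.1 to 119), called lower, from 22 and 10 counts. Monocytes and macrophages had 170 CPM (164 to 176) and 84.8 CPM (78.4 to 91.7), a log2 ratio of -1.0 that lies at the 2-fold limit and ends below free RNA. In the same FAPs, Il6, Lif and Il11 were 9.31-fold, 65.8-fold and 17.8-fold lower at day 7. Lif and Il11 ended near their levels in free RNA. Free RNA held Socs3 at 140 and 218 CPM.

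Single labels differed more. FAPs (Stem) had 153 CPM of Socs3 at day 2 and 409 at day 7, called higher (log2 ratio 1.42, 1.15 to 1.70), and MuSCs, few of which held myogenic markers at day 2, had 150 and 338, from 12 and 254 counts. Endothelial (Stem) had 517 and 142 CPM, called lower (-1.87, -2.26 to -1.49), while Endothelial (Capillary) had 449 and 341. Monocyte (Patrolling) had 131 and 28.6 CPM and M1 Macro. 170 and 76.0, both called lower. Neutrophils had 396 CPM at day 2. Shares of thinned cells with Socs3 were 51.5% (46.0 to 57.0) and 22.3% (17.9 to 27.2) in endothelial cells and 35.7% and 33.1% in FAPs.

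Of 11 other ligands and receptors of the family, few had counts enough to compare. In FAPs 3 of 4 tested were called higher (24.8% of all genes) and 0 lower (13.8%). Cntfr, the ciliary neurotrophic factor receptor chain, was at 3.31 CPM at day 2 and 13.4 at day 7, called higher. In monocytes and macrophages all 4 tested were called higher (18.8% of all genes), among them Ebi3, a subunit of interleukin 27, at 9.77 and 42.8 CPM. Some of these calls ended near background. Il11ra1 was at 23.2 and 57.0 CPM there, against 19.6 and 59.2 in free RNA. The receptor gene Il27ra was at 0.607 and 2.79 CPM there and at 0.195 and 2.94 in FAPs, where it was also called higher, against 1.31 and 2.42 in free RNA.

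Of 18 genes of signal transduction and receptor shedding, FAPs had 4 called higher and 1 lower, shares at or below those over all genes (24.8% and 13.8%), with a median log2 ratio of 0.38 against 0.21 over all genes. Stat3, the main transcription factor of the pathway, was at 239 and 177 CPM in FAPs and was called in none of the 5 classes. Jak1, the kinase bound to gp130, was at 241 and 204 CPM in FAPs. Jak2 was called lower in endothelial cells, at 135 and 56.6 CPM. In monocytes and macrophages 1 was called higher and 2 lower (18.8% and 12.3% of all genes), with the adaptor Gab1 at 79.9 and 12.2 CPM. In FAPs Gab1 was called higher, at 5.84 and 24.8 CPM.

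Of 19 genes known to be induced through gp130 and STAT3, most of those called were lower at day 7. In FAPs 3 were called higher and 8 lower of 18 tested, where 24.8% and 13.8% of all genes were, with a median log2 ratio of -0.85 against 0.21 over all genes. In monocytes and macrophages 1 and 9 of 18 were (18.8% and 12.3% of all genes; median -0.90 against -0.02). Endothelial cells had 1 higher and 5 lower of 14 (13.9% and 9.05%; -0.65 against 0.06), and smooth muscle cells 0 and 4 of 14 (13.5% and 7.35%; -0.73 against 0.10). Dendritic cells had 2 and 3 of 15 (12.4% and 7.42%; -0.23 against 0.05). Timp1, an inhibitor of matrix proteases, was at 3173 CPM in FAPs at day 2 and 215 at day 7, and the acute-phase gene Saa3 was at 462 and 19.8 CPM. Cebpb, a transcription factor of the acute-phase response, and Timp1 were called lower in all 5 classes. Hp and Lrg1, also acute-phase genes, were called higher in FAPs, Hp at 1.17 and 53.4 CPM, and lower in monocytes and macrophages, Hp at 146 and 10.1 CPM. These genes answer to other signals as well, and their lists were counted in the same libraries.

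The genes most like each member were taken over the 29 combinations of label and day with at least 50 cells, by Pearson's r of log2(CPM + 10), among 12471 genes. The combinations share 2 libraries, so r is a description. Osmr was closest to Npdc1 (0.981), Parva (0.978) and Cttn (0.975), and Osm to Lilrb4a (0.978), Lilr4b (0.973) and Itgam (0.962), the last being a myeloid integrin. Il6ra was closest to Prkcd (0.936), Il6st to Cyth3 (0.935), Lif to Steap1 (0.896) and the chemokine Cxcl5 (0.890), and Il11 to Ggt7 (0.884) and Tnfrsf11b (0.858). For the other genes the highest r was 0.850 for Il6 (Slc6a9), 0.847 for Lifr (Tpst1), 0.838 for Socs3 (Prrc2a) and 0.793 for Clcf1 (Whrn).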

How the data were processed

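Droplet libraries of day 2 and day 7 tibialis anterior muscle were analysed, 1 per day. The authors aligned reads to mm10 with Cell Ranger (3.1.0 in the submitters' notes) and deposited unique molecular counts per gene and barcode, for all barcodes and for called cells. They also deposited estimated counts corrected for free RNA by SoupX, which are not whole, and a table of cell types, from which putative doublets had been removed by DoubletFinder, so no doublet caller was run here. Labels came from clusters of an integrated compendium (Seurat 3.1.5 in the notes).

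The members and gene lists were chosen with earlier results of these data known. Named genes are the 10 members, the listed family, signalling and gp130-induced genes, with examples at the ends of each list, and the 3 genes most like each member. The lists' Cebpd was not analysed here, and some listed genes are counted but not reported by name. Cells in the table with at least 750 genes, 1000 transcripts and at most 30% mitochondrial transcripts, by the deposited SoupX values, were kept. The uncorrected counts were summed per label and class and divided by the total of the same cells. The kept cells held 34026345 counts at day 2 and 27620535 at day 7. Ratios carry exact conditional binomial (Clopper-Pearson) intervals, sums exact Poisson and shares exact binomial intervals. A count of 0 carries a floor of 3 counts. No gene was tested over replicates. The ratio and its interval were checked on simulated data. Python 3.11.15, numpy 2.4.6, scipy 1.17.1 and pandas 2.3.3 were used. Alternatives were SoupX values, cell limits, scaling, denominators, the largest cell, fold, count minimum, equal weight of cell types, 2 counts per cell and free RNA from barcodes with 1 to 10 counts. Those that leave out barcodes by marker counts or 1 tenocyte, and the unthinned receptor pairs, were chosen after seeing the data.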

Additional observations from a re-analysis of the deposited data

Results flagged for a closer look

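Several members moved in opposite directions between the days in different classes, each with a counting interval that left out 0. The differences between classes were not tested, since each class has 1 library per day. As log2 ratios of day 7 to day 2, Clcf1 was at 2.25 in dendritic cells and -2.31 in FAPs. Il6st was at 0.23 in endothelial cells and 0.69 in dendritic cells, against -0.64 in FAPs and -0.32 in smooth muscle cells. Lifr was at 1.81 in FAPs, 2.02 in endothelial cells and 1.44 in smooth muscle cells, against -0.69 in monocytes and macrophages. Socs3 was at 0.34 in FAPs, against -0.68 in endothelial cells, -0.21 in smooth muscle cells and -1.0 in monocytes and macrophages. Scaling by the median ratio over genes with a count on both days lowers every ratio of a class, by 0.13 to 0.23. So scaled, Il6st in endothelial cells was at 0.10 (-0.11 to 0.30), within counting error of 0. Clcf1 lay below free RNA in dendritic cells at day 2 (4.66 against 6.22 CPM) and in FAPs at day 7 (4.29 against 11.7). Both levels of Il6st in dendritic cells, 35.9 and 57.7 CPM, lay below free RNA (55.3 and 80.9).

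The called barcodes that the annotation table leaves out, 1299 at day 2 and 1473 at day 7, held counts of 10 of the 10 members above the limit that a count of 0 allows, on both days. Against free RNA, 1 member was lower there at day 2 and 8 were lower at day 7 (1 and 7 with free RNA from barcodes with 1 to 10 counts). Il6 was at 119 CPM at day 2 (free RNA 96.6) and 20.7 at day 7 (26.8), and Osm at 113 (88.7) and 22.7 (37.5).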

How the results depend on the processing

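No called ratio of a member turned its direction under any alternative run. The count of members called changed in 12 of 47 alternatives over the 5 classes, in 5 of them by more than 1.5 times. With a 4-fold limit it was 4 in FAPs (6 at 2-fold, without Osm and Lifr), 3 in smooth muscle cells (4, without Lifr), 1 in endothelial cells (2, without Il6), 0 in monocytes and macrophages (4) and 1 in dendritic cells (2, without Osm). With the mean over cells of each cell's CPM it was 2 in monocytes and macrophages, without Il6 and Socs3, and 3 in endothelial cells, where Socs3 was gained. With no minimum of counts, Osm was gained in endothelial cells. Without barcodes with 3 or more endothelial counts it was 2 in smooth muscle cells, Il6 and the gained Socs3, since Osm, Il11 and Lifr were lost, with 18 and 36 cells left. Osm in FAPs was lost without barcodes with 3 or more Ptprc counts. SoupX values lost Osm in smooth muscle cells and Il6 in monocytes and macrophages. The median log2 ratio over all genes with a count on both days, with no minimum, was 0.23 in FAPs, 0.13 in endothelial cells, 0.18 in smooth muscle cells, 0.13 in monocytes and macrophages and 0.16 in dendritic cells. Scaled to it, no call was lost or gained.

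Shares of counts moved more. The FAP share of Il6 at day 2 (60.0%) was 62.0% without the cell with the most counts in each class, 66.9% without basophil and mast cell barcodes and 22.5% with equal weight of cell types, where T and NK cells led with 62.7%. Equal weight gave FAPs 82.0% of Lif, 68.6% of Il11 and 30.3% of Clcf1 at day 2, with monocytes and macrophages leading Clcf1 at 35.5%. The share of Osm from monocytes and macrophages at day 2 (82.5%) was 79.5% with no limits on cells, 89.4% with stricter ones, 65.6% with equal weight and 83.7% without basophil and mast cell barcodes. At day 7, leaving out the top cell of each class gave 68.8% for Il6 in FAPs, 94.5% for Osm in monocytes and macrophages and 2.38% for Il11 in tenocytes, and equal weight gave 90.0% for Osm. Without the 1 tenocyte alone, tenocytes held 1.92% of Il11. Tenocytes had under 50 cells and so no share at equal weight, where FAPs led Il11 at day 7 with 43.8%. T and NK cells then led Clcf1 at day 7 with 36.0%.

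Of 100 levels of members by class and day, 16 moved beyond counting error with the mean over cells and 12 without the top cell. Of 100 shares of cells with a count, 90 moved on requiring 2 counts and 90 on thinning. Free RNA from barcodes with 1 to 10 counts moved 11 of 20 values, and 0 of the 100 levels changed their side of it.

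No paired analysis was possible because each day has 1 library. The precision of shares of Lif at day 7 is limited by its 63 counts.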
